A study of Mus musculus with 12 samples.

Results

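MHC class I molecules carry peptides from a cell's own proteins to its surface. The proteasome cuts the peptides, a transporter moves them into the endoplasmic reticulum, and there they are loaded onto a complex of a heavy chain and a light chain. The immunoproteasome is a form of the proteasome in which inducible catalytic subunits take the place of constitutive ones. In the brain these genes are known to be expressed by microglia and endothelium and, at lower levels, by some neurons, and they are known targets of interferon signalling. The genes described here are 10 that encode this pathway, out of 55573 in the count table. They were chosen by name for their roles, but with earlier results of these data known. They are the light chain B2m, the heavy chains H2-D1, H2-K1, H2-Q4 and H2-T23, the transporter and loading genes Tap1, Tap2 and Tapbp, and the immunoproteasome subunits Psmb8 and Psmb9.

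They were measured by RNAseq in the whole right hippocampus of C57BL/6J mice aged 4.5 months. The APPSwe/Ps1dE9 (APP/PS1) mice carry a chimeric mouse/human amyloid precursor protein with the Swedish mutation and a human presenilin 1 without exon 9, both driven by the prion protein promoter, and the wild-type (WT) mice carry neither. There were 4 APP/PS1 females, 4 APP/PS1 males, 2 WT females and 2 WT males, 1 library per animal, so each sex rested on 2 WT animals. Libraries are called here by genotype, sex and the number in their labels. Gene counts per library ranged from 36714316 to 50643565. The genotype labels were not checked against reads of the transgenes here. Levels are given as CPM, the reads of a gene as a proportion of the library, after scaling by upper-quartile factors (normalized CPM). Because the tissue was not separated into cell types, fewer cells of a type and less RNA per cell cannot be told apart in any value that follows.

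The choroid plexus adjoins the hippocampus, and its markers were high in 3 libraries. The summed level of 8 choroid plexus markers reached 3850 normalized CPM for APP/PS1 female 1, 6910 for APP/PS1 male 2 and 4030 for WT female 2. In the other 9 libraries it was 21.2 to 40.0. APP/PS1 male 2 was among the 3 highest APP/PS1 libraries for 10 of the 10 genes, and APP/PS1 female 1 for 9. WT female 2 was the highest WT library for 8. The lowest APP/PS1 library was male 3 for 7 of the genes. The genotype fits, subunit ratios and correlations were therefore also computed without the 3 choroid plexus-rich libraries, which leaves 6 APP/PS1 against 3 WT animals.

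The promoters of these genes are known to hold sites for interferon regulatory factors and for NF-kappaB, so the stretches around such letters are shown first. RefSeq promoters of 300 bases (GRCm38.p6) were listed for 9 of the 10 genes, all but Tap2. Matches to AANNGAAA, the core of an interferon-stimulated response element, were searched on both strands together with GGGNNTNCC, a kappaB type motif, and TTCNNNGAA, a gamma-activated site type motif. Matches to these motifs are in capitals, matches to the same motif can overlap, and each stretch is written along the strand of its gene.

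H2-K1, chr17:34000418-34000473, minus strand: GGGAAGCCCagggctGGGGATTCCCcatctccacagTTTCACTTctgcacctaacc
H2-D1, chr17:35262908-35262963, plus strand: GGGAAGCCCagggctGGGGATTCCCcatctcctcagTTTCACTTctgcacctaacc
H2-Q4, chr17:35379428-35379483, plus strand: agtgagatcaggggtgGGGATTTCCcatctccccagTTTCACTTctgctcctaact
H2-T23, chr17:36032772-36032835, minus strand: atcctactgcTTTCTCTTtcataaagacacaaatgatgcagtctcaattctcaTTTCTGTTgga
B2m, chr2:122147535-122147590, plus strand: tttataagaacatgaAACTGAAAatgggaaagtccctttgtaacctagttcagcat
Tap1, chr17:34187390-34187445, plus strand: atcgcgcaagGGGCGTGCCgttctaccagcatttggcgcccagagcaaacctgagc
Psmb8, chr17:34198085-34198126, plus strand: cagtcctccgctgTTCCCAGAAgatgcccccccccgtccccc

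The stretches of H2-K1 and H2-D1 were the same at 55 of 56 bases, and each matched the stretch of H2-Q4 at 46. The interferon type letters were in the listed promoters of 5 of the 9 genes, B2m and the 4 heavy chains, and in 23.9% of all 32851 promoters of this length. The kappaB type letters were also in 5, H2-D1, H2-K1, H2-Q4, Tap1 and Psmb9, and in 16.4% of all promoters. Tap1 and Psmb9 face away from each other, and their match is the same bases in a shared promoter. The gamma-activated type letters were in Psmb8 alone and in 8.3% of all promoters, and the promoter of Tapbp held none of the 3 motifs. A match is a description of the letters and not evidence of a bound site. The letters were chosen after these promoters had been seen, so the shares over all promoters cannot serve as a test. The matches of H2-K1 and H2-D1, with nearly the same stretch, are not independent.

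All 10 genes were higher in APP/PS1 than in WT hippocampus when the sexes were averaged, as were 54.5% of the 14008 genes tested. The median log2 fold change was 0.588 for the 10 against 0.009 over all genes tested. The increase passed the threshold, a false discovery rate (FDR) of 0.1 in edgeR's quasi-likelihood test, in 6 of the 10: the light chain B2m, the heavy chains H2-D1, H2-K1 and H2-T23, the transporter subunit Tap1 and the immunoproteasome subunit Psmb8. Of all genes tested, 1.70% were called higher in this comparison. Without the RUV factors of the model, which stand for unwanted variation, the calls of H2-K1 (0.53, adjusted p = 0.137), Tap1 (0.62, 0.388) and Psmb8 (0.84, 0.117) were lost. The other 4 genes, H2-Q4, Tap2, Tapbp and Psmb9, had log2 fold changes of 0.40, 0.15, 0.17 and 0.55. All 10 entered the test, but Psmb9 did so through 3 APP/PS1 libraries with at least 2 CPM and no WT library, while the other 9 reached that level in all 12.

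**Figure D1:**
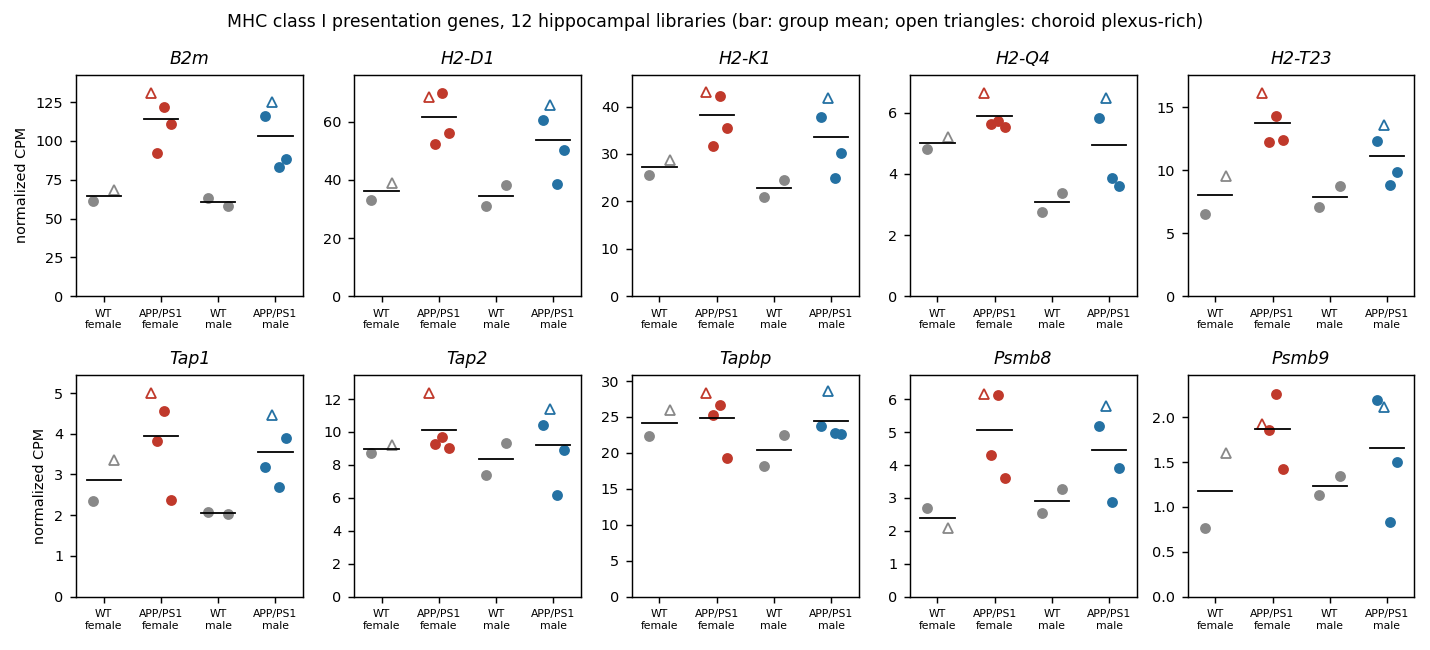
Level of each gene in normalized CPM (vertical axes, from 0) in each of the 12 libraries, by genotype and sex, with the group mean as a bar and the 3 choroid plexus-rich libraries as open triangles. B2m is the gene whose 8 APP/PS1 libraries, from 83.0 to 131, all lie above the 4 WT libraries, from 58.2 to 68.2.

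B2m encodes beta-2-microglobulin, the light chain shared by all the class I heavy chains, and lies at chr2:122147686-122153083 on the plus strand of GRCm38. It was the most abundant of the 10 per kilobase of exon, with a median of 132 normalized CPM per kilobase in APP/PS1 and 72.2 in WT animals. Its level was 131, 92.5, 122 and 111 normalized CPM in the APP/PS1 females and 116, 125, 83.0 and 88.5 in the APP/PS1 males. The WT females were at 61.0 and 68.2 and the WT males at 63.2 and 58.2. B2m was thus the 1 gene of the 10 whose genotypes did not overlap over both sexes, a pattern held by 1.31% of all genes tested. The log2 fold change was 0.74 (SE 0.087, adjusted p = 0.00182). It was called in 22 of 22 alternative fits, at 0.70 to 0.89, and at 0.71 (adjusted p = 0.0322) without the choroid plexus-rich libraries.

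H2-D1 and H2-K1 are the classical heavy chains of this strain, which present peptides to cytotoxic T cells. H2-D1 (chr17:35262730-35267499, plus strand) was at 68.4, 52.4, 70.0 and 56.3 normalized CPM in the APP/PS1 females and at 60.8, 65.8, 38.5 and 50.3 in the males. The WT females were at 33.2 and 39.1 and the WT males at 30.9 and 38.3. Of the 8 APP/PS1 libraries 7 exceeded every WT library, and only male 3 lay below WT female 2. H2-D1 rose by a log2 fold change of 0.69 (SE 0.13, adjusted p = 0.0475). The call was lost when APP/PS1 male 2 (0.65, adjusted p = 0.192) or any 1 of the WT animals was left out, with the WT females giving 0.71 (0.190) and 0.68 (0.203) and the WT males 0.60 (0.141) and 0.76 (0.103). It was also lost without a filter on low levels (0.66, 0.217). A replicate block, which sets animals with the same number in their labels together, lost the call too (0.72, adjusted p = 0.309). So did that block with no RUV factors (0.82, 0.104). Without the choroid plexus-rich libraries it was 0.67 (adjusted p = 0.0626), and the genotypes then did not overlap, which held for 4 of the 10 genes (B2m, H2-D1, H2-T23 and Tap1) and for 2.53% of all genes tested.

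H2-K1 (chr17:33996017-34000347, minus strand) was at 43.0, 31.7, 42.3 and 35.5 normalized CPM in the APP/PS1 females and at 37.8, 41.9, 24.9 and 30.1 in the males. The WT females were at 25.6 and 28.7 and the WT males at 21 and 24.5. Again APP/PS1 male 3 was the 1 APP/PS1 library within the WT range. H2-K1 rose by 0.49 on the log2 scale (SE 0.11, adjusted p = 0.0775). That call was lost without APP/PS1 female 1 (0.48, adjusted p = 0.168), female 4 (0.50, 0.107), male 2 (0.46, 0.289) or male 4 (0.53, 0.107). The call was lost with a replicate block too (0.54, 0.328), and with that block and no RUV factors (0.64, 0.146). It was also lost without either WT female (0.54, 0.202; 0.46, 0.266) or either WT male (0.43, 0.174; 0.55, 0.129), and without a filter on low levels (0.47, 0.215). Without the 3 choroid plexus-rich libraries it was 0.46 (adjusted p = 0.0958).

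H2-T23 encodes Qa-1, a nonclassical heavy chain that presents leader peptides of other class I chains to receptors of natural killer and T cells. It lies at chr17:36029773-36032855 on the minus strand and overlaps A930015D03Rik on the other strand. It was at 16.1, 12.2, 14.3 and 12.4 normalized CPM in the APP/PS1 females and at 12.3, 13.6, 8.82 and 9.88 in the males. The WT females were at 6.51 and 9.57 and the WT males at 7.08 and 8.71. The APP/PS1 females stood clear of every WT library, and male 3 lay below WT female 2. H2-T23 rose by 0.62 (SE 0.10, adjusted p = 0.011), and by 0.68 (adjusted p = 0.012) without the choroid plexus-rich libraries. Of 22 alternative fits 21 called it. The exception was the fit without APP/PS1 male 2, at 0.57 (adjusted p = 0.101).

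H2-Q4, another nonclassical heavy chain (chr17:35379617-35385290, plus strand, with Gm11131 on the other strand), had its lowest levels in the WT males. It was at 6.64, 5.64, 5.71 and 5.52 normalized CPM in APP/PS1 females and at 4.82 and 5.20 in WT females. In males it was at 5.84, 6.49, 3.87 and 3.61 in APP/PS1 and at 2.76 and 3.37 in WT animals. Within each sex the APP/PS1 libraries lay above the WT libraries, but the lower APP/PS1 males lay below the WT females. The log2 fold change of 0.40 (SE 0.14, adjusted p = 0.318) did not pass the threshold. Within-sex separation of this kind in both sexes held for 5 of the 10 genes, B2m and the 4 heavy chains, and for 1.86% of all genes tested. Psmb8 was also separated within females, where 12.5% of all genes were, and Tap1 and Tapbp within males, where 6.50% were.

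Per kilobase of exon, H2-D1 was the largest of the 4 heavy chains in each genotype, with a median of 22.7 normalized CPM per kilobase in APP/PS1 and 13.9 in WT animals. H2-K1 followed at 12.5 and 8.52, then H2-T23 at 4.29 and 2.73 and H2-Q4 at 2.19 and 1.58. The share of H2-D1 in the sum of the 4 was 53.4% to 56.4% in APP/PS1 and 50.1% to 54.0% in WT libraries. The share of H2-K1 was 28.8% to 30.4% against 30.3% to 33.9%, so the ranges overlapped for both chains. The ratio of B2m to the sum of the heavy chains was 2.87 to 3.45 against 2.46 to 3.24. These shares were not tested. Of 150-base windows in the transcripts, 1.79% of those of H2-D1 occurred also in another gene, H2-Q1, and 0.831% of those of H2-T23 did. The other 8 genes shared none.

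Among the 8 APP/PS1 animals the chains varied together. With the mean of each sex removed, H2-K1 and H2-D1 had a Pearson r of 0.989 (permutation p = 0.000223, adjusted over 4 pairs 0.000892) and a Spearman rho of 0.952 (permutation p = 0.00114, adjusted 0.00456). The permutations ran over all pairings of the 8 animals and did not keep the sexes apart. Because the values were centred within each sex, the p-values of these correlations are approximate and can be too small. B2m and H2-D1 had an r of 0.929 (permutation p = 0.00107, adjusted 0.00143) and a rho of 0.905 (permutation p = 0.00456, adjusted 0.00912). Leaving out the 2 animals farthest from the median gave an r of 0.983 and 0.893. Among the 6 animals that were not choroid plexus-rich, r was 0.988 for H2-K1 and H2-D1 and 0.899 for B2m and H2-D1. The animals differ in microglial marker level too, and its part in these correlations was not tested.

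**Figure D2:**
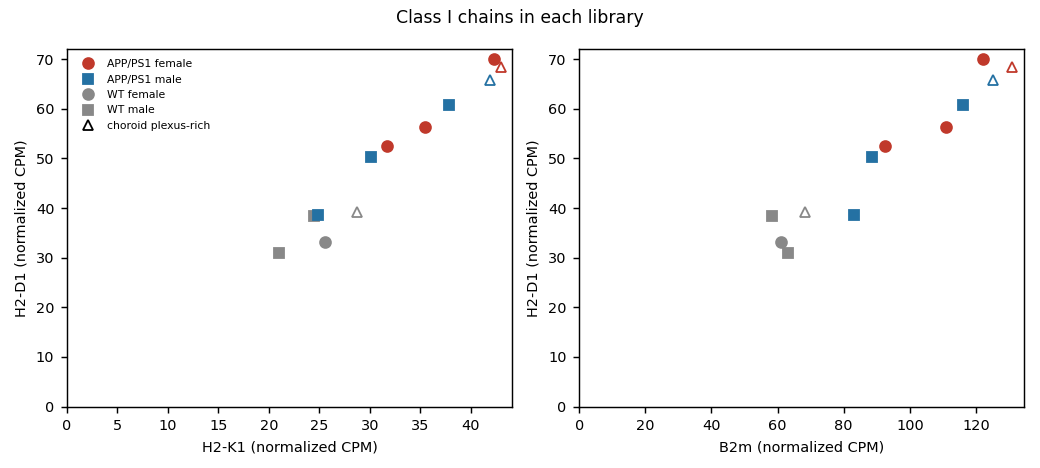
H2-D1 against H2-K1 (left) and against B2m (right), in normalized CPM on linear axes, each point a library, with circles for females, squares for males and open triangles for the choroid plexus-rich libraries. APP/PS1 male 3, at 38.5 for H2-D1 and 24.9 for H2-K1, lies among the WT libraries on the left and at 83.0 for B2m apart from them on the right.

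Tap1 and Tap2 form the transporter that carries peptides into the endoplasmic reticulum, and Tapbp encodes tapasin, which bridges that transporter and the empty heavy chain. Of these 3 genes Tap1 was called. Tap1 (chr17:34187553-34197225, plus strand) was at 4.99, 3.81, 4.56 and 2.37 normalized CPM in the APP/PS1 females and at 3.17, 4.47, 2.69 and 3.89 in the males, with the WT females at 2.35 and 3.36 and the WT males at 2.08 and 2.03. Of the APP/PS1 libraries 5 exceeded every WT library, and WT female 2 was above the other 3. Tap1 rose by a log2 fold change of 0.66 (SE 0.15, adjusted p = 0.05). The call was lost without the choroid plexus-rich libraries, at 0.66 (adjusted p = 0.179), where the lowest APP/PS1 library was at 2.37 and the highest WT library at 2.35. It was lost with 1 RUV factor (0.61, 0.149) as well as with none. The call was lost with a replicate block too (0.64, 0.184), and with that block and no RUV factors (0.76, 0.295). It was also lost without APP/PS1 female 2 (0.67, adjusted p = 0.104), APP/PS1 male 2 (0.59, 0.154), WT female 1 (0.66, 0.171), WT female 2 (0.67, 0.162) or WT male 2 (0.60, 0.225).

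Tap2 (chr17:34203527-34216321, plus strand) was at 12.4, 9.29, 9.72 and 9.0 normalized CPM in the APP/PS1 females and at 10.4, 11.4, 6.18 and 8.93 in the males. The WT females were at 8.73 and 9.22 and the WT males at 7.37 and 9.32. Its lowest library of all was APP/PS1 male 3, and the log2 fold change was 0.15 (SE 0.13, adjusted p = 0.787). Tapbp (chr17:33915899-33929292, plus strand) ranged from 19.3 to 28.6 in APP/PS1 and from 18.2 to 26.0 in WT libraries, and its log2 fold change was 0.17 (SE 0.077, adjusted p = 0.526). Per kilobase of exon the order in WT animals was Tapbp, Tap2, Tap1, at medians of 6.19, 2.37 and 0.405 normalized CPM per kilobase, and it was the same in APP/PS1 animals at 6.75, 2.51 and 0.703. A test of Tap1 against Tap2 was not made. Tap2 overlaps Gm15821 and Gm20496, and Tapbp overlaps Zbtb22 on its own strand and Gm19412 on the other.

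Psmb8 and Psmb9 are the inducible catalytic subunits that replace the constitutive Psmb5 and Psmb6. Psmb8 (chr17:34197721-34201454, plus strand, overlapping Gm20496) was at 6.16, 4.31, 6.13 and 3.62 normalized CPM in the APP/PS1 females and at 5.20, 5.80, 2.87 and 3.92 in the males. The WT females were at 2.70 and 2.08 and the WT males at 2.55 and 3.27. All APP/PS1 libraries but male 3 exceeded every WT library, and the log2 fold change of 0.83 (SE 0.21, adjusted p = 0.0987) was the highest of the 10 in the full set. Without the choroid plexus-rich libraries it was 0.61 (adjusted p = 0.179), below Psmb9, B2m, H2-T23, H2-D1 and Tap1, and the call was lost. It was lost, too, with TMM scaling (0.82, adjusted p = 0.102) and with a replicate block (0.96, 0.171). The call was lost without APP/PS1 female 1 (0.80, 0.189), female 2 (0.87, 0.137) or female 3 (0.75, 0.157), and without APP/PS1 male 1 (0.76, 0.162) or male 2 (0.78, 0.209). It was also lost without WT female 2 (0.63, 0.343), WT male 1 (0.74, 0.199) or WT male 2 (0.91, 0.203).

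Psmb9 (chr17:34181987-34187764, minus strand) was the least abundant, with 29 to 98 reads a library. It was at 1.93, 1.86, 2.26 and 1.42 normalized CPM in the APP/PS1 females and at 2.19, 2.12, 0.837 and 1.5 in the males, with the WT females at 0.767 and 1.60 and the WT males at 1.13 and 1.34. Of the APP/PS1 libraries 5 lay above the WT range, and the log2 fold change of 0.55 (SE 0.25, adjusted p = 0.517) did not pass. Psmb9 and Tap1 overlap at their starts on opposite strands. The libraries were directional, but the strand setting of the counting is not stated, so reads of such pairs may not be fully told apart.

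Setting each inducible subunit against the constitutive one it replaces needs no scaling between libraries. Psmb8 counts were 10% to 20.6% of Psmb5 counts in APP/PS1 libraries (median 14.7%) and 6.75% to 10.5% in WT libraries (median 8.85%). The log2 ratio was higher by 0.77 (two-sided exact permutation p = 0.00808 over all 495 splits, adjusted over 3 pairs 0.0242, where the smallest p possible is 0.00202). It stayed higher by 0.54 without the choroid plexus-rich libraries (exact permutation, adjusted p = 0.179). It then no longer passed the threshold for ratios and correlations, an adjusted p under 0.05. Leaving out WT female 1 (0.81), WT female 2 (0.65) or WT male 1 (0.75) also took the adjusted p to 0.0545 (exact permutation). Psmb9 was 1.17% to 3.09% of Psmb6 against 1.14% to 2.31%, a difference of 0.52 (exact permutation p = 0.0869, adjusted 0.130), which passed only without APP/PS1 male 3, at 0.67 (exact permutation, adjusted p = 0.0136). Psmb9 had met the filter on levels through APP/PS1 libraries only, which favours a higher ratio in APP/PS1. Psmb10, the third inducible subunit, whose gene lies outside the MHC, was 17.7% to 22.1% of Psmb7 against 19.0% to 20.7%, a difference of 0.04 (exact permutation p = 0.485). The constitutive Psmb5, Psmb6 and Psmb7 had log2 fold changes of 0.027, -0.0081 and 0.022, and Psmb10 had 0.094 (adjusted p = 0.719).

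**Figure D3:**
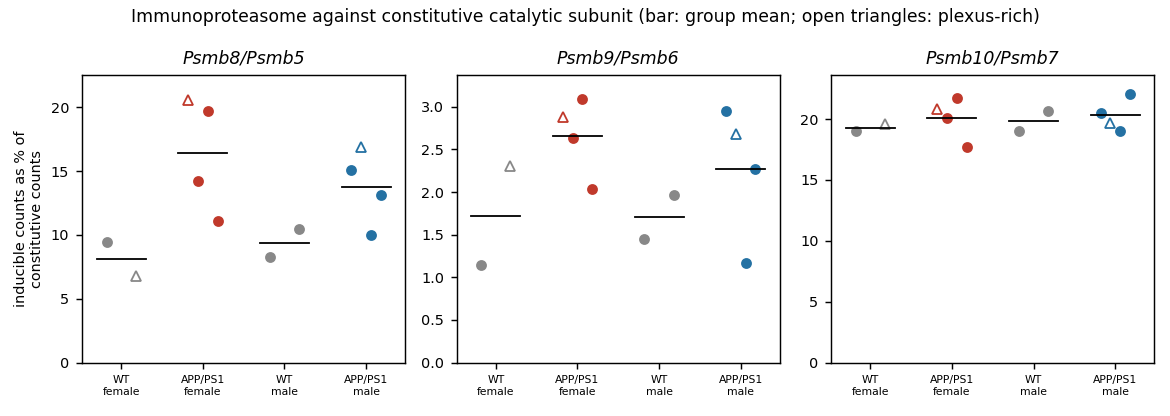
Counts of each inducible catalytic subunit as a percentage of the counts of the constitutive subunit it replaces (vertical axes, from 0), by library, genotype and sex, with the group mean as a bar and the choroid plexus-rich libraries as open triangles. Psmb8 per Psmb5 lies between 10% and 20.6% in APP/PS1 and between 6.75% and 10.5% in WT libraries, while Psmb10 per Psmb7 overlaps throughout.

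Among the APP/PS1 animals Psmb8 and Psmb9 had an r of 0.907 (approximate permutation p = 0.000843, adjusted 0.00143) and a rho of 0.81 (approximate permutation p = 0.0218, adjusted 0.0291), and an r of 0.754 without the 2 farthest animals. Tap1 and Psmb9, the genes that share a promoter, had an r of 0.637 (approximate permutation p = 0.0857, adjusted 0.0857) and a rho of 0.524 (approximate permutation p = 0.197, adjusted 0.197). The r was -0.145 without APP/PS1 female 4 and male 3, so the relation rested on those animals, and it was 0.819 (approximate permutation, adjusted p = 0.0242) without APP/PS1 male 1.

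The study asked whether the genotype acts differently in the sexes. In females 2 of the 10 genes were called, B2m at 0.83 (SE 0.12, adjusted p = 0.0192) and H2-T23 at 0.88 (SE 0.15, adjusted p = 0.0229), where 0.728% of all genes were called higher. Psmb8 was at 1.15 in females (SE 0.30, adjusted p = 0.168), and at 0.79 without the choroid plexus-rich libraries. An unadjusted p under 0.05 was found for 7 of the 10 and for 6.13% of all genes in the direction of an increase. Psmb9 was among the 7, but it had met the filter through APP/PS1 libraries only, which favours a higher level in APP/PS1. The B2m call in females was lost without WT female 1 (0.90, adjusted p = 0.251), WT female 2 (0.77, 0.119) or the choroid plexus-rich libraries (0.75, 0.162). The H2-T23 call was lost without WT female 1 (0.77, adjusted p = 0.405) or APP/PS1 male 2 (0.81, 0.134), and with females fitted alone (0.77, 0.226). Without RUV factors neither was called, at 0.82 (adjusted p = 0.112) for B2m and 0.77 (0.24) for H2-T23.

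In males edgeR's quasi-likelihood test called 0 of the 10 genes, where it called 0.157% of all genes higher. Of the 10, 6 had an unadjusted p under 0.05, as did 3.21% of all genes in the direction of an increase. The likelihood ratio test called 1 and DESeq2 called 2. B2m came nearest, at 0.66 (SE 0.12, adjusted p = 0.125), and it passed with TMM scaling (0.65, adjusted p = 0.0915), with a CPM filter (0.66, 0.0889), and without APP/PS1 female 2 (0.67, adjusted p = 0.0882), female 3 (0.65, 0.0674) or male 3 (0.75, 0.0255). All 10 genes were higher in APP/PS1 than in WT animals in each sex, as were 54.7% of all genes in females and 51.7% in males. The median log2 fold change of the 10 was 0.751 in females and 0.481 in males, against 0.015 and 0.004 over all genes. Psmb9 had met the filter through APP/PS1 libraries only. The males' range ran from 0.035 for Tap2 to 0.66 for B2m.

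The difference between the sexes in the genotype effect, tested as an interaction, was called for 0 of the 10 genes and for 0.00% of all genes by edgeR's quasi-likelihood test, and DESeq2 and the likelihood ratio test also called 0 of the 10. The adjusted p was 0.998 for each of the 10. H2-T23 alone had an unadjusted p under 0.05, with an effect greater in females by 0.51 on the log2 scale (SE 0.21, unadjusted p = 0.0285). The estimates of Psmb8, at 0.65 (SE 0.41), and Psmb9, at 0.57 (SE 0.52), were larger but less certain, and H2-Q4 had the opposite sign at -0.30 (SE 0.28).

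Among the APP/PS1 animals the levels of females and males were also compared directly, 4 against 4. All 10 genes were higher in females, by 0.014 (Tapbp) to 0.32 (H2-T23) on the log2 scale, where 52.8% of all genes tested were higher. The 10 are not independent, since several of them varied together between animals. Of the 10, 0 were called by edgeR's quasi-likelihood test, DESeq2 or the likelihood ratio test. The first of these called 0.0857% of all genes. Only H2-T23 had an unadjusted p under 0.05 (SE 0.11, adjusted p = 0.856).

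**Figure D4:**
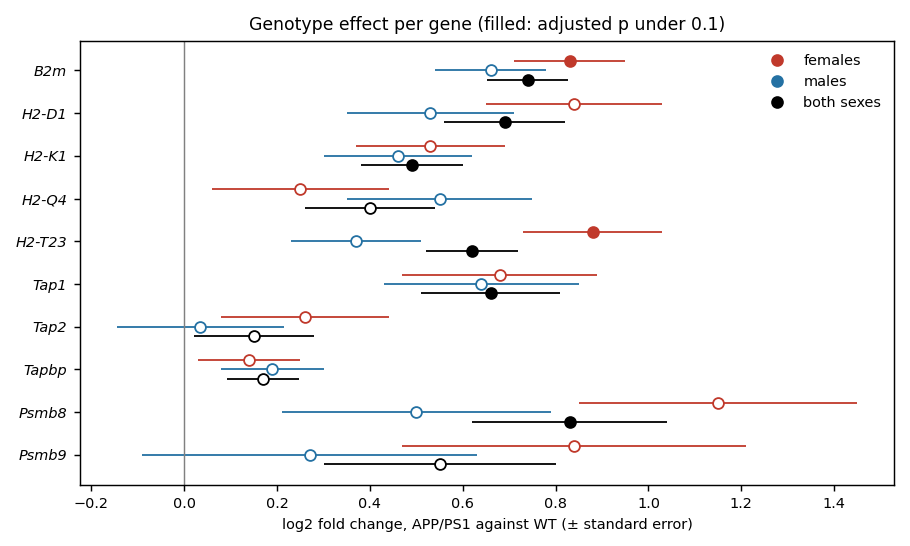
Log2 fold change of APP/PS1 against WT (horizontal axis) for each gene in females, males and both sexes, with bars of 1 standard error and filled points for an adjusted p under 0.1. Filled points are 2 in females, 0 in males and 6 for both sexes, and all points lie right of 0.

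The other genes of the pathway were described by lists. Of 93 such genes 65 could be tested, and 1 was called in the mean of both sexes, with a median log2 fold change of 0.029. Among all genes tested 54.5% were higher and 1.70% were called higher, with a median of 0.009. Of 19 other class I heavy chain and class I-like genes 6 were tested and 0 were called by edgeR's quasi-likelihood test, with 2 at an unadjusted p under 0.05. These were H2-T22 at 0.20 (SE 0.067, adjusted p = 0.293), whose 8 APP/PS1 libraries exceeded the 4 WT libraries, and H2-M3 at 0.49 (SE 0.17, adjusted p = 0.322). The 15 genes of peptide loading and trimming, among them calreticulin, calnexin and Pdia3, had a median of 0.009 with none called. Erap1, which trims peptides in the endoplasmic reticulum, was the 1 of them with an unadjusted p under 0.05, at 0.24 (SE 0.09, adjusted p = 0.366). Of 20 other proteasome genes 16 were higher, with a median of 0.062 and none called. The 2 with an unadjusted p under 0.05 were Psme2, a subunit of the interferon-inducible activator, at 0.18 (SE 0.061, adjusted p = 0.308), and Psma5 at 0.12 (SE 0.052, adjusted p = 0.498). Over all 65, the likelihood ratio test called 4 and DESeq2 called 3.

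Of 28 regulators and interferon signalling genes 24 were tested, 18 were higher and 1 was called. Among all genes tested 54.5% were higher and 1.70% were called higher. An unadjusted p under 0.05 in edgeR's quasi-likelihood test was found for 5, all higher, and for 6.15% of all genes in that direction. Beside Irf8 these were Stat2 at 0.26 (SE 0.067, adjusted p = 0.106) and Irf9 at 0.34 (SE 0.09, adjusted p = 0.117). The others were Irf7 at 0.79 (SE 0.25, adjusted p = 0.261) and Irf1 at 0.23 (SE 0.097, adjusted p = 0.445). Irf8, a transcription factor of microglia and other myeloid cells, was at 7.04 to 13.6 normalized CPM in APP/PS1 and 3.69 to 5.64 in WT libraries, with a log2 fold change of 1.21 (SE 0.19, adjusted p = 0.015). Its call was lost without WT female 2, at 1.17 (adjusted p = 0.105). Nlrc5, the transactivator of class I genes, was below the level needed for testing, at 0.746 to 2.41 in APP/PS1 and 0.50 to 1.24 in WT libraries. Ifnb1 had no read in any library. A further list held 11 immune receptor genes, and whether each of them binds class I molecules was not examined. None of the 11 reached the level needed for testing. Lilrb4a among them was at 0.385 to 2.08 normalized CPM in APP/PS1 and 0.0265 to 0.158 in WT libraries, while the others overlapped between the genotypes. Its values are therefore no evidence on a receptor of class I molecules.

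The genes were set beside markers of the cell types that could carry them. The summed level of 10 microglial markers was 555 to 923 normalized CPM in APP/PS1 and 376 to 489 in WT libraries. All 10 markers were higher, 5 of them called, with a median log2 fold change of 0.786. Among all genes tested 54.5% were higher and 1.70% were called higher. APP/PS1 male 3, the lowest APP/PS1 library for 7 of the presentation genes, also had the lowest microglial sum of its genotype, at 555, and APP/PS1 female 3 had the highest, at 923. The choroid plexus-rich WT female 2 had the lowest microglial sum of all, at 376, while it was the highest WT library for 8 of the presentation genes. Endothelial markers summed to 166 to 240 in APP/PS1 and 156 to 245 in WT libraries, and 0 of 8 were called by edgeR's quasi-likelihood test, with 1 higher and 1 lower at an unadjusted p under 0.05. Neuronal markers summed to 5730 to 6440 and 5740 to 6190. The T and NK cell markers summed to 0.724 to 1.65 and 0.397 to 0.702, none of the 12 reached the level needed for testing, and Cd3e, Cd3d, Cd3g, Cd8b1, Prf1, Klrk1 and Ncr1 had under 10 reads in every library. Of 4 B cell markers the immunoglobulin chain Ighm was called, at 0.91, while Ms4a1 had under 10 reads in every library. The part of the microglial or any other cell content in the increase of the presentation genes was not tested.

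Of the 10 genes, 9 lie in the major histocompatibility complex on chromosome 17. From the start of Tapbp to the end of the farthest class I gene tested (chr17:33915899-37274484), these 9 had a median log2 fold change of 0.55 and 5 were called. The 82 other tested genes of the same stretch outside the pathway lists had a median of 0.01, 46 of them were higher, and 4 (4.88%) were called. These 4 were the class II chains H2-DMb1 (0.95) and H2-Ob (1.47), the complement gene C4b (1.32) and the microglial gene Aif1 (0.77). Among all genes tested 54.5% were higher and 1.70% were called higher. Called and uncalled genes stood next to each other, as with Psmb8 (0.83) and Tap2 (0.15), whose starts are a few kilobases apart.

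**Figure D5:**
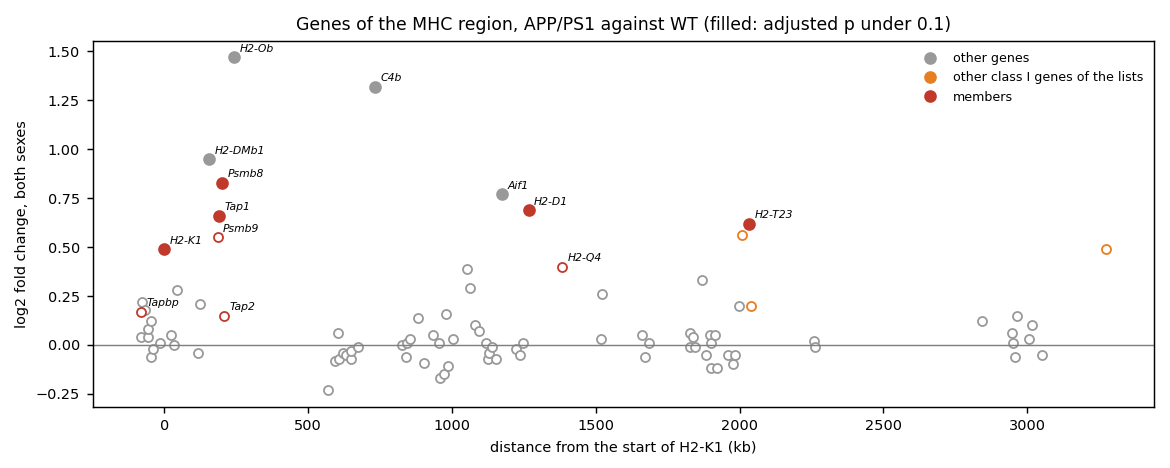
Log2 fold change, both sexes (vertical axis), of tested genes by distance from the start of H2-K1 in kilobases (horizontal axis), with the presentation genes in red, other class I genes of the lists in orange and all other genes in grey, filled for an adjusted p under 0.1. The 9 presentation genes lie between 0.15 and 0.83, and the grey genes have a median of 0.01.

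The genes outside all lists whose levels followed those of the 10 most closely over the 12 libraries were chosen by the Pearson r with the mean of the standardized log2 levels. They were Apobec1 (r = 0.972), a cytidine deaminase, Tlr2 (0.971), a receptor of bacterial lipoproteins, Ctsa (0.962) and Ctsb (0.962), lysosomal proteases, and Trim30d (0.962). With the mean of each group removed the values were 0.961, 0.954, 0.944, 0.942 and 0.913. These are descriptions over 12 libraries that share genotype, choroid plexus content and scaling.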

How the data were processed

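Hippocampal RNA of 12 animals was sequenced as directional polyA libraries. According to the methods and the submitters' processing notes, adapters and poor reads were removed with Trimmomatic, STAR aligned the remainder to GRCm38, and HTSeq gave the counts that the authors deposited. Their versions and the strand option of the counting are not given in the sources used here. The deposited values were raw counts per gene. All deposited columns were used. GENCODE release M21, matched by 55480 of the 55573 identifiers, was the source of symbols, positions and exon lengths, and Nrdc was matched through its older symbol Nrd1.

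Testing was limited to the 14008 genes that reached a log2 CPM of 1 in 3 or more libraries. Upper-quartile scaling was used, and 2 factors of unwanted variation came from a re-implementation of RUVg, whose control genes were those ranked below 5000 in a first pass over the groups. One model over the 12 libraries was fitted with edgeR 4.0.16 in R 4.3.3 (robust quasi-likelihood test, two-sided). Benjamini-Hochberg adjustment covered every gene tested, and an FDR under 0.1 was called. The study's own likelihood ratio test was an alternative, as was DESeq2 1.42.0. Standard errors are of the fitted log2 fold changes. The procedure was checked on simulated counts. Ratios used exact permutation tests over all splits, and correlations used permutations over all pairings (scipy 1.17.1). For both the threshold was an adjusted p under 0.05. The pairings crossed the sexes after centring within each sex, so the p-values of the correlations are approximate. At these depths counting error is small beside the spread between animals for all but the lowest genes. All pairs of libraries within a group differed by more than the sampling noise, by a chi-square per degree of freedom of 15.5 to 73.0.

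Named genes were the 10 members, Psmb10, Psmb5, Psmb6, Psmb7 and Nlrc5, up to 4 called genes of each pathway list, the 5 genes most alike, and markers beside a result. H2-T22, H2-M3, Erap1, Psme2, Psma5, Stat2, Irf9, Irf7, Irf1, Ifnb1, Lilrb4a and the 4 called neighbours in the MHC fall outside this rule. They were named after their values were seen. Some genes of the rule and lists are not reported here. The members, lists, alternatives and tests were chosen with earlier results of these data known, and the motif letters after the promoters had been seen. Alternatives were other scaling, filters, tests and RUV settings, a replicate block, each sex alone, and leaving out single animals or the choroid plexus-rich libraries. In fits that leave 1 WT animal in a sex, that animal is assumed to vary like the other groups.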

Additional observations from a re-analysis of the deposited data

Results flagged for a closer look

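Of 30 groups of 4 libraries examined over 15 genes, 1 held a library far from the other 3 by Dixon's criterion, whose 95% critical value for 4 samples is 0.829. Psmb7 was at 108 normalized CPM in APP/PS1 male 4, with a gap of 0.929 of the group's range to the nearest of the other APP/PS1 males. Chance is expected to give about 1 such group in 20. No group of the 10 presentation genes met the criterion.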

How the results depend on the processing

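Over the alternatives, 604 of 680 values for single genes kept their direction and their side of the threshold, 53 lost a call, 19 gained one, and 4 changed sign without being called (Tap2 and Psmb9 in males). No called value reversed. Of the 10 presentation genes, the number called in both sexes was 3 without RUV factors, 2 with a replicate block, 3 with a replicate block and no RUV factors, and 3 at an FDR under 0.05. It was 1 to 6 when single animals were left out, with 1 without APP/PS1 male 2, 2 without WT female 2 or WT male 2, and 3 without WT female 1 or WT male 1. In females the number was 5 by the likelihood ratio test, 5 by DESeq2, 0 without RUV factors with or without a replicate block, 1 without the choroid plexus-rich libraries, and 0 to 3 without single animals. In males it was 1 by the likelihood ratio test, 2 by DESeq2, 1 with TMM scaling, 1 with a CPM filter, and 0 to 1 without single animals. The labels do not say whether animals with the same replicate number belong together. Correlations of same-numbered libraries, taken on deviations from the group means, ran from -0.643 to 0.697. With 2 WT animals a sex these deviations mirror each other, and both extremes involve choroid plexus-rich libraries. The correlations therefore cannot show whether the numbers pair the animals.

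Of the other pathway genes, 4 were called by the likelihood ratio test, 3 by DESeq2, 2 without an expression filter, 3 with a CPM filter, 2 without the choroid plexus-rich libraries, and 0 to 3 without single animals. Over all genes in females, 275 were called by the likelihood ratio test, 287 by DESeq2, 191 without a filter, 67 without RUV factors, 39 with a replicate block and no RUV factors, 164 without the choroid plexus-rich libraries, 57 at an FDR under 0.05, and 12 to 152 without single animals, against 109. In males the counts were 117, 119, 40 without a filter, 9 with a replicate block and no RUV factors, 8 for males fitted alone, 13 at an FDR under 0.05, and 4 to 72 without single animals, against 22. For both sexes they were 167 at an FDR under 0.05 and 124 to 351 without single animals, against 259. The Psmb8 to Psmb5 difference was 0.99 in females alone (exact permutation, adjusted p = 0.20), 0.54 in males alone (0.60), where the 15 splits within either sex allow no p under 0.0667, and 0.54 without the choroid plexus-rich libraries, and 0.65 to 0.86 without single animals. The Psmb9 to Psmb6 difference was 0.34 to 0.68, and the r of Tap1 and Psmb9 was 0.561 to 0.819, without single animals. The causes were not tested. The 2 WT animals a sex and under 100 reads a library for Psmb9 limit what these data can show.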
